A study of Saccharomyces cerevisiae with 13 samples.

Results

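The mitotic arrays and the G1 arrays are 8 of the 13 two-colour arrays of a single budding yeast time course. They were chosen by the time in the label alone. The arrays at 10, 20, 70 and 80 min after release from alpha factor make up the G1 group, which runs from G1 into early S phase, and those at 50, 60, 110 and 120 min make up the mitotic group, which covers mitosis and the exit from it. Each group holds 4 arrays. The labels give times and no cell cycle phases, so the phase names rest on the time since release. The marker genes described below were compared between these same groups and are no separate test of the names.

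All 8 samples came from W303 cells (a laboratory strain background) labelled as yox1 yhp1 mutants, and all had first been held in G1 by alpha factor, the pheromone through which cells of one mating type signal to the other. The cells were then released into YEPD, a rich glucose medium. The Cy5 channel held RNA of the time point, and the Cy3 channel held RNA of an asynchronous wild-type culture grown to an optical density of 0.6, the same on every array. The 10 and 20 min samples were taken soon after pheromone was removed, whereas the 70 and 80 min samples had passed through mitosis. The step from 50 and 60 min to 70 and 80 min is therefore the one exit from mitosis into G1 in the course with no alpha factor arrest between its ends, and it is reported on its own as the direct passage. The labels do not say what kind of mutation each gene carries.

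Of 6205 gene rows, 5833 had values on all 8 arrays. Deposited values are log ratios of sample over reference, read here as log10, so that a difference of 0.30 is close to a 2-fold change. The base was inferred from a limit at exactly 2 and no label or header states it. Across genes, pairs of the 8 arrays correlated with r = 0.379 to 0.853 (median 0.613). There was 1 array per time point, no dye swap and no second culture, so the p-values below measure the scatter between time points of 1 culture and not the spread between cultures. The number of arrays limits the precision. Signal over background on these arrays is not known.

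Cells leaving mitosis replace one transcription programme with the next. In budding yeast, Mcm1 with the forkhead factor Fkh2 and the coactivator Ndd1 drives the CLB2 cluster in G2 and mitosis, and a product of that cluster, the transcription factor Swi5, switches on genes of mitotic exit and early G1. The factors SBF and MBF then switch on the genes of late G1, among them G1 cyclins and enzymes that make and copy DNA. Yox1 and Yhp1, a related pair of homeodomain proteins, repress promoters with an early cell cycle box (ECB), to which Mcm1 binds, until the end of mitosis.

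The genes named in the strain label were examined first. YOX1 stood at 0.02 and 0.00 at 10 and 20 min, -0.23 and -0.53 at 50 and 60 min, -0.18 and 0.12 at 70 and 80 min, and -0.07 and -0.26 at 110 and 120 min. Its mitotic mean was lower than its G1 mean by 1.84-fold, a difference of -0.26 ± 0.089 (SE) that did not pass the test (adjusted p = 0.114, limma). With the 70 min array left out it did pass (adjusted p = 0.0475), as it did in the first cycle alone (0.0385). YHP1 was below the reference on all 8 arrays, from -0.50 at 70 min to -0.12 at 120 min. Its mitotic mean was 1.48-fold above its G1 mean (0.17 ± 0.065, adjusted p = 0.152), and it passed without the 80 min array (adjusted p = 0.0229). YOX1 transcript was thus close to or above the reference level on some arrays of cells labelled as its mutant, and the sources used here do not say which stretch of either gene the probes cover.

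Comparing the 4 mitotic with the 4 G1 arrays across all genes, 302 of 5833 genes (5.18%) differed at an adjusted p under 0.05. Of these, 112 (1.92%) were higher in the mitotic arrays, with a median fold of 1.53, and 190 (3.26%) were higher in the G1 arrays, with a median fold of 1.93. At least 2-fold differences were seen for 27 of the mitotic genes and 91 of the G1 genes. In 894 of the 5833 genes (15.3%) the 4 mitotic and the 4 G1 values did not overlap. The counts depend on single arrays. They were 39 and 98 once the 50 min array was dropped, 299 and 320 once the 70 min array was dropped, and 50 and 115 with both early G1 arrays left out. The mitotic count fell to between 58 and 70 on leaving out the 10, 20, 60 or 120 min array, and the G1 count to 119 and 123 on leaving out the 60 or the 120 min array.

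The CLB2 cluster was high in mitosis and low in G1. Of its 17 members, all measured, 16 were higher in the mitotic arrays and none was lower, and in the same 16 the values of the groups did not overlap. The median difference over the list was 0.41, or 2.56-fold in size, against 0.0066 over all genes tested. Without the 50 min array 13 of the 17 were called, and in the second cycle alone 8. CHS2, the chitin synthase that builds the primary septum between mother and daughter, had the largest difference of any mitotic gene. It stood at -0.55 and -0.54 at 10 and 20 min, 0.57 and 0.58 at 50 and 60 min, 0.12 and -0.23 at 70 and 80 min, and 0.34 and 0.43 at 110 and 120 min. All 4 mitotic arrays lay above all 4 G1 arrays, and the 70 min array was the highest of the G1 group. The mitotic mean was 6.05-fold above the G1 mean (0.78 ± 0.13, adjusted p = 0.00647). In the second cycle alone the fold was 2.76 and missed the threshold (adjusted p = 0.0518).

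The B-type cyclins of mitosis and other members of the cluster followed the same order. CLB2, the main mitotic cyclin, was at -0.62 and -0.53 at 10 and 20 min, 0.32 and 0.18 at 50 and 60 min, -0.20 and -0.37 at 70 and 80 min, and 0.12 and 0.13 at 110 and 120 min. That is 4.15-fold (0.62 ± 0.082, adjusted p = 0.00247). CLB1, its close relative, differed by 4.21-fold (adjusted p = 0.0127) and missed the threshold without the 50 min array (adjusted p = 0.0538) or with a linear time term (0.0739). CDC5, the polo kinase that promotes mitotic exit, ranged from -0.58 at 10 min to 0.41 at 50 min and was 4.05-fold higher in mitosis (adjusted p = 0.00521, and 0.0608 in the second cycle alone). CDC20, which activates the anaphase-promoting complex (APC) that marks cyclins for destruction, was 2.18-fold higher (adjusted p = 0.00242). HOF1 and IQG1, proteins of the contractile ring, were 4.25-fold and 2.82-fold higher (adjusted p = 0.00317 and 0.00721, the latter 0.052 with a linear time term). MYO1, the ring's myosin, had the smallest called difference of the cluster at 1.48-fold (adjusted p = 0.0475), and the call was lost on leaving out any 1 array except that at 70 min (adjusted p = 0.0738 to 0.151) and with cycle as a block (0.051).

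SWI5, which encodes a transcription factor, was 2.99-fold higher in the mitotic arrays (adjusted p = 0.00247), with values of 0.16 to 0.27 there and -0.43 to -0.10 in the G1 arrays.

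**Figure D1:**
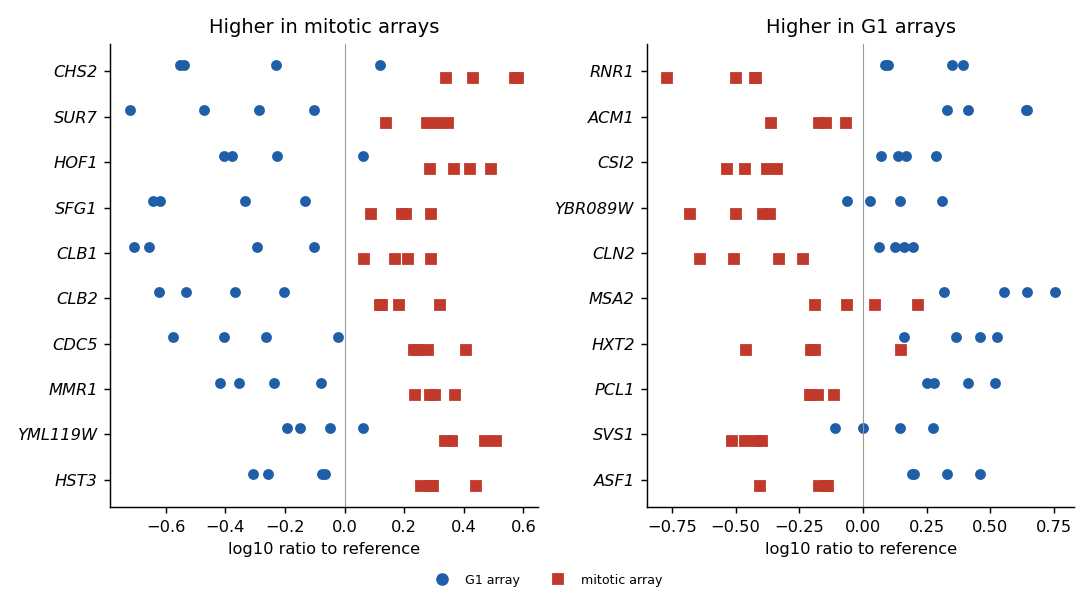
Log10 ratio to the reference (horizontal axis) of the 10 genes with the largest mitotic excess (left) and the 10 with the largest G1 excess (right) among genes that passed the test without overlap; each point is 1 array, circles for the 4 G1 arrays and squares for the 4 mitotic arrays. In each of the 20 genes every square lies on one side of every circle, with HXT2 showing the narrowest gap, from 0.15 at 60 min to 0.16 at 80 min.

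The remaining genes among the 10 with the largest mitotic excess differ in function, and HST3 among them is also a member of the CLB2 cluster. SUR7, a plasma membrane protein of the eisosome domains, was 4.62-fold higher in the mitotic arrays (adjusted p = 0.00565). It rose from between -0.72 and -0.10 in the G1 arrays to between 0.14 and 0.35 in the mitotic ones. MMR1, which tethers mitochondria to the myosin that carries them into the bud, was 3.73-fold higher (adjusted p = 0.00154), and SFG1, a regulator of pseudohyphal growth, was 4.24-fold higher (adjusted p = 0.00521). HST3, a histone deacetylase that acts on newly made chromatin, was 3.15-fold higher (adjusted p = 0.00167). YML119W, an open reading frame with no gene name in the reference table, was 3.17-fold higher (adjusted p = 0.00154).

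Of 17 measured genes of mitotic exit and of the APC, 5 were higher in the mitotic arrays and 1 in the G1 arrays. The shares over all genes tested were 1.92% and 3.26%. The 5 were CDC5, CDC20, MOB1, SPO12 and DBF2. MOB1 and DBF2 encode partners in the kinase complex at the end of the mitotic exit network, and SPO12 a protein that helps release the exit phosphatase. MOB1 was 1.95-fold higher (adjusted p = 0.010, but 0.0598 with a linear time term and 0.0728 without the 10 and 20 min arrays), SPO12 1.91-fold (adjusted p = 0.00438) and DBF2 1.66-fold (adjusted p = 0.0187, and 0.061 with a trended and robust prior). The 1 that ran the other way was ACM1, an inhibitor of the APC activator Cdh1, which stood at 0.64 at 10 and 20 min, 0.41 and 0.33 at 70 and 80 min, and between -0.36 and -0.07 in the mitotic arrays. Its G1 mean was 4.94-fold above its mitotic mean (adjusted p = 0.00154), the second largest G1 difference of all genes. CDH1 itself differed by 1.03-fold (adjusted p = 0.917), with its highest value, 0.16, at 70 min.

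Other mitotic machinery gave calls in both directions. Over all genes tested, 1.92% were higher in mitosis and 3.26% in G1. Of 30 spindle and kinetochore genes, 3 were higher in mitosis and 2 in G1, a total that fell to 1 without the 50 or the 60 min array. With the 70 min array left out, 6 were higher in G1. ASE1, which bundles microtubules of the spindle midzone, was 2.07-fold higher in mitosis (adjusted p = 0.00306). NUF2, a kinetochore subunit, was 1.34-fold higher (adjusted p = 0.0201, and 0.0503 to 0.0626 on leaving out any 1 of the mitotic arrays). SPC42 and TUB4, components of the spindle pole body and of the gamma-tubulin complex on it, were 1.47-fold and 1.42-fold higher in G1 (adjusted p = 0.0324 and 0.021), and leaving out the 50 or the 60 min array ended both calls. Of 16 cytokinesis and septum genes, 4 were higher in mitosis, all of them members of the CLB2 cluster as well. CHS3, the chitin synthase that lays the ring at the bud neck, was 1.62-fold higher in G1 (adjusted p = 0.00565). FKH2, the forkhead factor of the CLB2 cluster and itself on the list of Hcm1 targets, was 1.75-fold higher in mitosis (adjusted p = 0.0125, and 0.0527 without the 50 min array).

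Genes of SBF and MBF were the mirror image. Of 40 measured members, 32 were higher in the G1 arrays and none in the mitotic arrays, and the median difference was -0.38, or 2.40-fold in size. All 40 differences lay below 0. RNR1, the large subunit of ribonucleotide reductase that makes DNA precursors, had the largest G1 excess of all genes. It stood at 0.35 and 0.39 at 10 and 20 min, -0.77 and -0.50 at 50 and 60 min, 0.09 and 0.10 at 70 and 80 min, and -0.42 on both later mitotic arrays. Its G1 mean was 5.75-fold above its mitotic mean (a difference of -0.76 ± 0.091, adjusted p = 0.00154). Without the 50 min array 25 of the 40 were called, and in the second cycle alone 15.

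G1 cyclins and several replication genes were among those higher in the G1 arrays. CLN2, a G1 cyclin that drives the start of a new cycle, was at 0.16 and 0.13 at 10 and 20 min, -0.64 and -0.51 at 50 and 60 min, 0.06 and 0.20 at 70 and 80 min, and -0.24 and -0.33 at 110 and 120 min, a 3.67-fold excess in G1 (adjusted p = 0.00247). CLN1, its close relative, differed by 2.91-fold, PCL1, a cyclin of the Pho85 kinase, by 3.47-fold and CLB6, an S phase cyclin, by 2.69-fold (adjusted p = 0.00154, 0.00154 and 0.0264). The call of CLB6 was lost on leaving out any 1 of the mitotic arrays or the 20 min array (adjusted p = 0.0555 to 0.0841). Among the copying enzymes, POL1 and POL12, subunits of DNA polymerase alpha, were 3.15-fold and 2.68-fold higher in G1, RFA1 of the single-strand binding complex 2.49-fold, and CDC9, the DNA ligase, 2.48-fold. POL30, the sliding clamp, was 1.59-fold higher (adjusted p = 0.0277), a call lost when the 10, 20, 50 or 120 min array was left out (adjusted p = 0.0681 to 0.086). ASF1, a histone chaperone, was 3.24-fold higher (adjusted p = 0.00306).

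The 7 measured members of the SBF and MBF list that did not pass, besides YOX1, were RAD54, RFA3, SMC1, ASF2, PRI1, NRM1 and RFC4. RAD54, which acts in DNA repair, came closest at 1.77-fold (adjusted p = 0.0553, and 0.00832 with the 70 min array left out). SMC1 and ASF2 also passed with that array left out (adjusted p = 0.0264 and 0.046). RFC4, a subunit of the clamp loader, stayed between -0.15 and -0.03 on all 8 arrays, and its groups overlapped (1.06-fold, adjusted p = 0.659). NRM1, which represses MBF genes once S phase begins, ranged from -0.15 at 60 min to 0.06 at 20 min and differed by 1.11-fold (adjusted p = 0.583).

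Of the remaining genes with the largest G1 excess, CSI2, a bud neck protein, and SVS1, a wall protein, belong to the SBF and MBF list and were 3.92-fold and 3.36-fold higher in G1. MSA2, a partner of SBF and MBF, was 3.67-fold higher (adjusted p = 0.00815), but missed the threshold with a linear time term (0.0583), without the 10 and 20 min arrays (0.0526) and in the second cycle alone (0.148). HXT2, a glucose transporter, was 3.58-fold higher (adjusted p = 0.0202) and missed it without any of the 10, 20, 50 or 120 min arrays (adjusted p = 0.054 to 0.0725). YBR089W was 3.88-fold higher (adjusted p = 0.00314). That open reading frame overlaps POL30, and the sources used here do not say whether the array tells the strands apart.

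**Figure D2:**
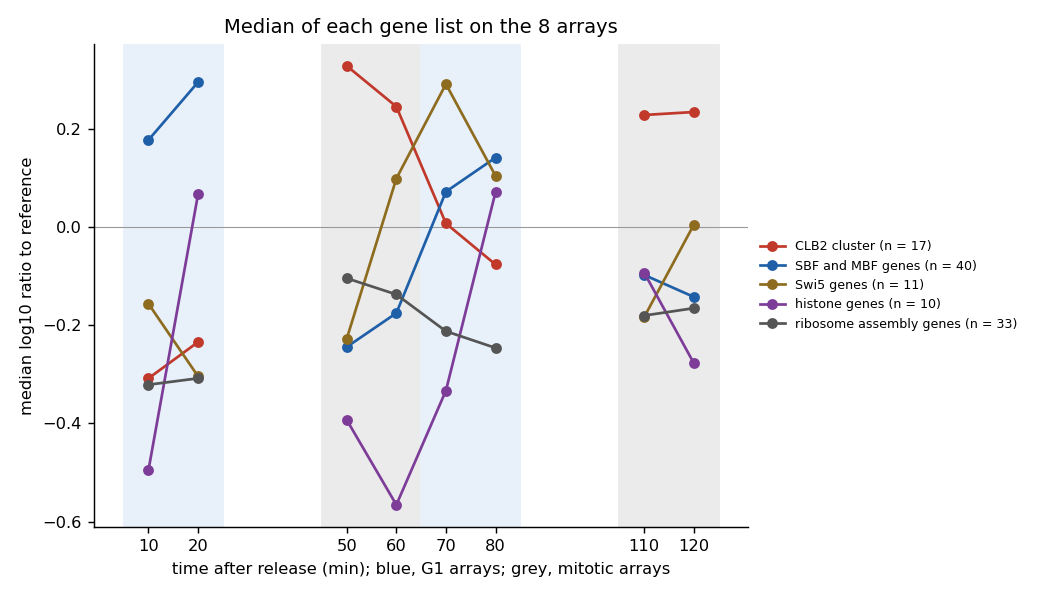
Median log10 ratio to the reference (vertical axis) of 5 gene lists on each of the 8 arrays, against time after release in min; lines join neighbouring arrays, blue bands are G1 arrays and grey bands mitotic arrays. The CLB2 cluster goes from 0.33 at 50 min to -0.08 at 80 min, the SBF and MBF genes go from -0.24 to 0.14, and the Swi5 genes are at 0.29 at 70 min.

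In the direct passage from 50 and 60 to 70 and 80 min, 118 genes rose (2.02% of 5833) and 68 fell (1.17%), with median folds of 2.15 and 1.84. All 4 of these arrays are also in the comparison above. Of the 17 CLB2 cluster genes 15 fell and none rose. The largest fall among them was that of CHS2, which dropped by 0.63 log10, 4.30-fold (adjusted p = 0.00513). CLB2 fell 3.44-fold (adjusted p = 0.00273). Of the 40 SBF and MBF genes 27 rose and none fell, led by RNR1 at 5.33-fold and CLN2 at 5.04-fold (adjusted p = 0.00151 and 0.00059). Without the 50 min array only 6 CLB2 cluster genes fell and 14 SBF and MBF genes rose.

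The 70 and 80 min arrays were also set side by side, without a share over all genes for either order. In 14 of 17 CLB2 cluster genes the value at 70 min was above that at 80 min, and in 26 of 40 SBF and MBF genes the value at 80 min was above that at 70 min. The median of the cluster was 0.0078 at 70 min and -0.08 at 80 min, against -0.31 and -0.23 at 10 and 20 min. That of the SBF and MBF genes was 0.07 at 70 min and 0.14 at 80 min, against 0.18 and 0.30 at 10 and 20 min. On the mitotic arrays it lay between -0.24 and -0.10. At 70 min, 35 of the 40 were above both their 110 and their 120 min values. A log ratio from a mixed population cannot tell less RNA per cell from fewer cells at that stage.

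Several genes of the cell wall and of the separation of daughter from mother rose in the direct passage but did not pass the comparison of all mitotic with all G1 arrays. DSE2, a daughter-specific glucanase, stood at -1.26 and -1.38 at 10 and 20 min, -1.29 and -0.95 at 50 and 60 min, -0.24 and -0.05 at 70 and 80 min, and -0.59 and -0.64 at 110 and 120 min. Its levels in the early G1 arrays were as low as those at 50 min, and its levels in the later G1 arrays were the highest of all. The rise in the direct passage, 9.44-fold (0.97 ± 0.098 log10, adjusted p = 0.00158), was the largest of any gene.

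SCW11, a cell wall glucanase, was at -0.90 on both early G1 arrays and at 0.10 and -0.13 on the later ones, and rose 4.50-fold in the direct passage (adjusted p = 0.00471). DSE1, a daughter-specific protein, was at -0.87 and -0.92 early and -0.08 and 0.04 late, and rose 4.06-fold (adjusted p = 0.000419). BUD9, a landmark of the bud site, rose 2.91-fold (adjusted p = 0.00422), and PRY3, a cell wall protein, 2.83-fold (adjusted p = 0.00947, but 0.0753 and 0.0836 with the 50 or the 80 min array left out). AMN1, a daughter-specific antagonist of mitotic exit, rose 2.71-fold (adjusted p = 0.0445), a call lost when the 50, 70, 110 or 120 min array was left out. With both early G1 arrays left out of the comparison of mitotic with G1 arrays, all 6 of these genes were higher in G1. That comparison keeps all 4 arrays of the passage by which the genes were picked, so it is no separate support. The folds were 5.29 for DSE2, 3.93 for SCW11, 3.26 for DSE1, 2.61 for AMN1, 2.53 for PRY3 and 2.47 for BUD9 (adjusted p = 0.0488, 0.00704, 0.00587, 0.0257, 0.00673 and 0.0118). BUD9 also passed with cycle as a block (adjusted p = 0.0314), with a linear time term (0.0151) and in the second cycle alone (0.0392). DSE2 passed with a linear time term (0.0459), and SCW11 and DSE1 in the second cycle alone (0.0305 and 0.00799). All of these settings keep the 70 and 80 min arrays by which the genes were picked, so they too are no separate support. In the first cycle alone DSE1 was instead higher in mitosis (adjusted p = 0.00364).

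Swi5 genes were high at 70 min. Of 11 measured members, 10 had their highest value at 70 or 80 min and 10 were higher at 70 than at 80 min. HO, the mating-type switching endonuclease gene, stood at -0.64 and -0.50 at 10 and 20 min, -0.75 and -0.47 at 50 and 60 min, 0.17 and 0.30 at 70 and 80 min, and -0.43 and -0.34 at 110 and 120 min. Only the 2 later G1 arrays were above the reference, and the rise in the direct passage was 7.02-fold (adjusted p = 0.00165). Of the 11, 2 rose, HO and RME1, against 5 with the 60 min array left out. Over all genes tested, 2.02% rose in the passage and 3.26% were higher in G1 between the groups. RME1, a repressor of meiosis, rose 2.67-fold (adjusted p = 0.0415), a call lost without any one of the 50, 70, 80, 110 or 120 min arrays. PCL2, a Pho85 cyclin also on the SBF and MBF list, was the 1 member called between mitotic and G1 arrays (1.82-fold higher in G1, adjusted p = 0.0356, lost without any one of the 20, 50, 80, 110 or 120 min arrays). SIC1, the inhibitor of B-type cyclin kinase, went from -0.25 and 0.15 at 50 and 60 min to 0.29 and 0.03 at 70 and 80 min, which did not pass (1.63-fold, adjusted p = 0.455). ASH1, the daughter-specific repressor of HO, was at 0.42 at 60 min and 0.54 at 70 min, so its high values straddled the boundary between the groups.

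**Figure D3:**
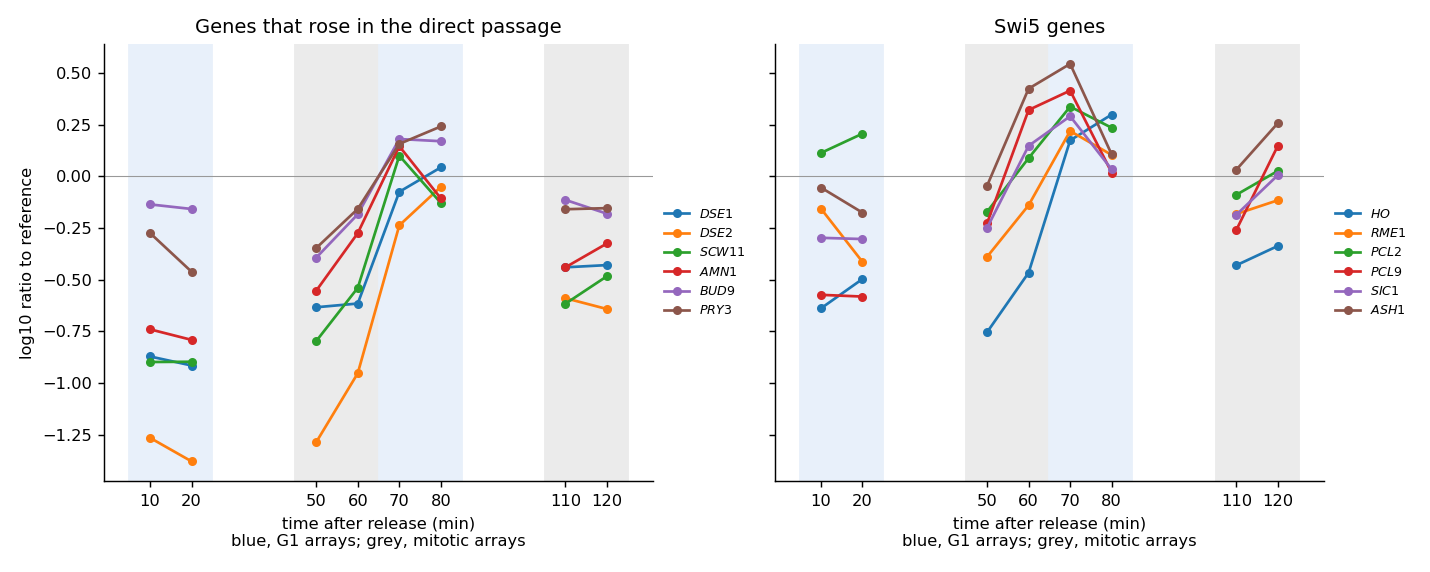
Log10 ratio to the reference (vertical axis) against time after release in min for 6 genes that rose in the direct passage, DSE1, DSE2, SCW11, AMN1, BUD9 and PRY3 (left), and 6 Swi5 genes (right); each point is 1 array, blue bands are G1 arrays and grey bands mitotic arrays. DSE2 climbs from -1.29 at 50 min to -0.05 at 80 min, and HO from -0.75 to 0.30.

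The ECB genes, the group that Yox1 and Yhp1 act on in wild-type cells, gave no call. Of the 8 measured, limma called none in the comparison of mitotic with G1 arrays and none in the direct passage, and 1 in each direction had an unadjusted p under 0.05 in the former. Over all genes tested, 5.18% were called between the groups, and 2.02% rose and 1.17% fell in the passage. The absence of a call among 8 genes therefore says little about them. SWI4, the DNA-binding subunit of SBF, was at 0.49 and 0.44 at 10 and 20 min, -0.09 and 0.29 at 50 and 60 min, 0.22 and 0.27 at 70 and 80 min, and 0.06 and 0.02 at 110 and 120 min. The 60 min value lay inside the G1 range, and the 1.93-fold difference missed the threshold (adjusted p = 0.0712), which it passed with the 60 or the 70 min array left out (0.024 and 0.0337), with array weights (0.045), with cycle as a block (0.046) and in the first cycle alone (0.0268). MCM2, MCM4 and MCM5, subunits of the replicative helicase, differed by 1.35-fold, 1.09-fold and 1.12-fold. MCM2, which had the higher mean in mitosis, passed with quantile normalization (1.53-fold, adjusted p = 0.00535), without the 70 min array (0.0243) and in the first cycle alone (0.0344). MCM5 stayed between 0.23 and 0.33 on all 8 arrays. CLN3, the cyclin that acts first in G1, had its highest values, 0.19 and 0.14, at 60 and 70 min, on either side of the boundary between the groups.

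Most histone genes, which encode the proteins that package DNA, are transcribed in S phase. None of the 10 histone genes was called by limma in either comparison, and at an unadjusted p under 0.05 there was 1 between the groups and 2 in the direct passage. Of all genes tested, 5.18% were called between the groups, so a list of 10 without a call says little. HTA1, an H2A gene, stood at -0.66 and 0.04 at 10 and 20 min, -0.48 and -0.81 at 50 and 60 min, -0.41 and 0.07 at 70 and 80 min, and -0.19 and -0.36 at 110 and 120 min. In all 10 genes the 20 min value was above the 10 min value and the 80 min value above the 70 min value. 

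Of 33 measured ribosome assembly genes, 8 were higher in the mitotic arrays and none was lower. The share higher in mitosis over all genes tested was 1.92%. All 33 had a difference above 0, with a median of 0.12, or 1.33-fold in size. The median was 0.188 in the first cycle and 0.0421 in the second, where 6 of the 33 were below 0. YTM1, a factor of the large subunit, stood at -0.38 and -0.39 at 10 and 20 min, -0.10 and -0.15 at 50 and 60 min, -0.29 on both later G1 arrays, and -0.16 and -0.17 at 110 and 120 min (1.55-fold, adjusted p = 0.00927). IMP4 and NOC2, of the small and the large subunit, were 1.53-fold and 1.48-fold higher (adjusted p = 0.0341 and 0.0172). The call of IMP4 was lost on leaving out any 1 array except those at 70 and 80 min. The lowest values were at 10 or 20 min in 31 of the 33. Those arrays had the widest spread over genes of the 8 (SD 0.169 and 0.158), and the share over all genes was not computed. None of the 33 passed without the 10 and 20 min arrays, with a linear time term, or in the second cycle alone. Only 1 passed without the 50 or the 60 min array. Without the 10 and 20 min arrays the differences of YTM1, IMP4 and NOC2 were 0.141, 0.114 and 0.128. The cause of the lost calls was not tested. Without the 70 min array 14 passed. None of 133 ribosomal protein genes was called in either comparison by limma, with 3 higher in mitosis and 2 in G1 at an unadjusted p under 0.05. Over all 5833 genes tested, 5.18% were called between the groups, and 735 and 608 had such an unadjusted p. In the passage 2.02% rose and 1.17% fell.

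Some phosphatase and SSA chaperone genes were called in the direct passage but not between all mitotic and all G1 arrays. With a linear time term the latter comparison also called PHO5, PHO3, SSA1 and SSA3 (adjusted p = 0.0117, 0.0379, 0.0449 and 0.0232), with cycle as a block SSA3 (0.0287), and without both early G1 arrays PHO84 (0.0159). These settings keep the arrays of the passage, so they are no separate support for the calls there. Of 17 genes of phosphate uptake and scavenging, 4 fell and 1 rose in the passage. Over all genes tested, 1.17% fell and 2.02% rose there, and 3.26% were higher in G1 between the groups. PHO5, the repressible acid phosphatase, was at 0.16 and 0.05 at 10 and 20 min, 0.25 and 0.32 at 50 and 60 min, -0.11 and -0.38 at 70 and 80 min, and -0.07 and -0.04 at 110 and 120 min, a fall of 3.39-fold in the passage (adjusted p = 0.00537). PHO3 and PHO12, close relatives whose RNA may bind the same probes, fell 2.93-fold and 2.38-fold (adjusted p = 0.0368 and 0.00947), and PHO84, the phosphate transporter, 1.65-fold (adjusted p = 0.0195). Dropping the 50 min array left 1 of the 4 falls, that of PHO5, and the calls of PHO3 and PHO84 were lost without the 80, 110 or 120 min array as well, that of PHO3 also without the 60 min array and that of PHO84 without the 70 min array. PHO8, the vacuolar alkaline phosphatase, rose 1.57-fold (adjusted p = 0.0336, but not without any one of the other arrays of the passage or of the later mitotic pair, at 0.0525 to 0.216) and was the 1 member higher in the 4 G1 arrays (1.63-fold, adjusted p = 0.00256). Of 18 heat shock and stress genes, 3 fell in the passage, all of them SSA genes of the Hsp70 family. SSA1, SSA3 and SSA4 fell 1.65-fold, 1.69-fold and 1.54-fold (adjusted p = 0.0117, 0.00947 and 0.0447), and none was called without the 50 or the 60 min array. SSA1 and SSA3 also lost the call without the 80 min array, and SSA4 without the 70, 110 or 120 min array (adjusted p = 0.0973 to 0.176), in the passage arrays alone (0.119) and with limit values kept (0.0519). These relatives are close in sequence, and the sources used here do not say whether the probes separate them.

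At the cell wall, SCW4, a glucanase, fell 2.23-fold in the passage (adjusted p = 0.00471; between the groups 0.0514, and 0.025 with cycle as a block) while EXG1, an exoglucanase, rose 2.93-fold (adjusted p = 0.0061, and 0.0547 without the 50 min array; between the groups 0.18, and 0.0394 with cycle as a block). GAS3, of the glucanosyltransferase family, was 1.94-fold higher in the mitotic arrays (adjusted p = 0.043), and the call was lost without any one of the 10, 50, 80, 110 or 120 min arrays. YGP1, a secreted glycoprotein, and KIN3, a protein kinase, fell 2.88-fold and 2.75-fold in the passage (adjusted p = 0.0415 and 0.0118), and each call was lost without the 50 or the 80 min array, that of YGP1 also without the 60 min array. HSL1, a kinase at the bud neck that relieves the Swe1 block to mitosis, rose 3.70-fold (adjusted p = 0.0332), a call lost without any array of the passage. Of 19 glycolysis genes 1, HXK1, was higher in G1 (1.93-fold, adjusted p = 0.0387), and of 27 respiration genes 1, SDH1 (1.68-fold, adjusted p = 0.0301). The share higher in G1 over all genes tested was 3.26%. The call of HXK1 was lost on leaving out any 1 array except that at 70 min, and that of SDH1 on leaving out the 10, 20, 50, 60 or 110 min array. None of 22 methionine and sulfur genes was called by limma between the groups, and 1 was so at an unadjusted p under 0.05.

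None of the 24 genes of the pheromone response was called by limma in either comparison (3 between the groups and 1 in the passage at an unadjusted p under 0.05), nor any of 7 a-specific and 4 alpha-specific genes (none of them at an unadjusted p under 0.05). The share called between the groups over all genes tested was 5.18%. Of the 24 pheromone genes, 9 had their highest value at 10 min and 8 at 120 min, and 13 had their lowest at 10 or 20 min. Of the 7 a-specific genes, 4 were highest at 10 min and 4 lowest at 20 min. The 10 and 20 min arrays had the widest spread over genes of the 8 (SD 0.169 and 0.158). Extremes are thus more likely there for any gene, and the shares over all genes were not computed. AGA1, the anchor of the agglutinin that joins mating cells, was at 0.80 at 10 min and between -0.27 and -0.06 on the other 7 arrays. FIG1 and FIG2, which act in mating, were at 0.56 and 0.67 at 10 min and at no more than 0.09 and 0.12 elsewhere. The a-specific genes AGA2 and MFA1 were also highest at 10 min, at 0.53 and 0.45. FAR1, the pheromone-activated cyclin kinase inhibitor, was lowest on those arrays, at -0.48 and -0.57 at 10 and 20 min.

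The difference between mitosis and G1 was then compared between the cycles, 50 and 60 against 10 and 20 min and 110 and 120 against 70 and 80 min, which have no array in common. The first cycle alone gave 495 genes higher in mitosis and 517 higher in G1, the second 22 and 54. The differences had an SD over genes of 0.144 in the first and 0.0788 in the second. Of the 1012 genes called in the first cycle, 806 (79.6%) had the same direction in the second, where the share over all genes was 62.1%, and 65 were called there in the same direction. With quantile normalization, which gives every array the same distribution of values, the counts were 175 and 300 in the first cycle and 57 and 93 in the second. The differences were smaller in size in the second cycle for 16 of 17 CLB2 cluster genes and 37 of 40 SBF and MBF genes.

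**Figure D4:**
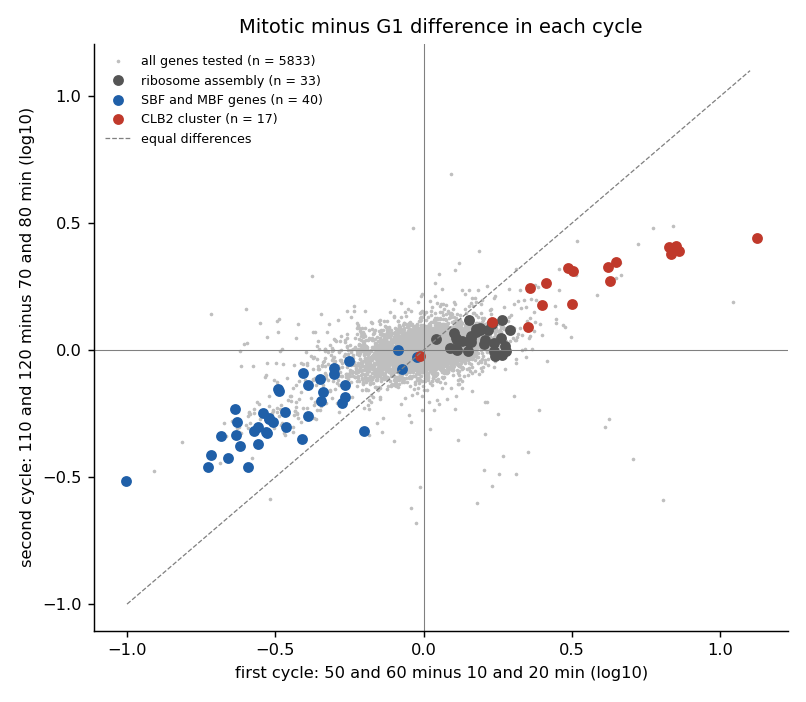
Mitotic minus G1 difference in log10 ratio in the first cycle (horizontal axis) and in the second cycle (vertical axis) for all 5833 genes tested (small grey points) and for 3 gene lists; the dashed line marks equal differences. In the upper right lie 16 of the 17 CLB2 cluster genes, and all 40 SBF and MBF genes lie below 0 in both cycles.

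The difference between the cycles itself passed the test for 34 genes (0.583%), of which 31 were not called in the comparison of all mitotic with all G1 arrays. The highest of their 8 values was at 10 or 20 min in 28 of the 34 and the lowest in 5. DSE1, SCW11 and SUN4 were among the latter. The 10 and 20 min arrays are part of this contrast and had the widest spread of the 8. Their SD over genes was 0.169 and 0.158, and the next widest was 0.114 at 70 min. Extreme values there are thus partly built in, and the share over all genes was not computed. DSE1 went up 1.86-fold from G1 to mitosis in the first cycle and down 2.62-fold in the second (adjusted p of the difference = 0.00631). SCW11 went from -0.90 to -0.80 and -0.54 in the first cycle and from 0.10 and -0.13 to -0.62 and -0.48 in the second (adjusted p = 0.0377). SUN4, a wall protein of the SUN family, was at -0.77 and -0.65 at 10 and 20 min and between -0.32 and -0.17 on the other 6 arrays (adjusted p = 0.0212). BSC1, of unknown function, was below the reference throughout, at -1.10 and -1.09 at 10 and 20 min, -0.82 and -0.75 at 50 and 60 min, -0.69 and -0.93 at 70 and 80 min, and -1.22 and -1.37 at 110 and 120 min (adjusted p = 0.015).

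Metabolic genes were among those with high values early after release. NCE103, carbonic anhydrase, was at 0.94 and 0.69 at 10 and 20 min and between -0.02 and 0.17 on the other 6 arrays (adjusted p = 0.00851). ARG1, argininosuccinate synthetase of arginine synthesis, was at 0.95 and 0.91 at 10 and 20 min and between 0.23 and 0.58 on the others (adjusted p = 0.00851). ARG3 and ARG4, of the same pathway, and ORT1, the mitochondrial ornithine carrier, were called too (adjusted p = 0.00716, 0.0104 and 0.0368). IRC8, a member of the CLB2 cluster, was higher in mitosis in both cycles with a smaller difference in the second, 0.18 against 0.50 (adjusted p of the difference = 0.0416). The count of 34 was 5 without the 120 min array, 9 with the 110 min array left out, 11 with the 60 min array left out and 81 with the 20 min array left out.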

How the data were processed

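The deposited table of the whole series held 1 log10 ratio per gene and array, per the labels Cy5 sample over Cy3 reference. The log10 base was inferred, since 15 values on these 8 arrays had a size of exactly 2 and the largest other value was 1.61. How the authors corrected, normalized or filtered these values was not given in the sources used here. Before centring, the deposited medians by array lay between -3.815e-05 and 0.0078. The 12 control rows were left out, limit values were set to missing, each array was centred on its median, and genes needed all 8 values, which left out 358 genes with a missing value and 14 with a limit value. Symbols for 5703 genes came from a RefSeq table of assembly R64, used for names only.

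Differences were tested with limma 3.58.1 (lmFit, eBayes) in R 4.3.3, two-sided, with Benjamini-Hochberg adjustment over all 5833 genes and a threshold of 0.05. The main comparison set 4 mitotic against 4 G1 arrays. The direct passage and the difference between cycles (second minus first) were contrasts in a fit of 4 pairs of neighbouring arrays. The fits were tested on simulated data. All members, the 21 gene lists and the tests were chosen with earlier results of these data known, and lists are described by counts and medians only. Named genes were YOX1 and YHP1, the 10 largest differences each way without overlap that matched the direct passage, any called gene that ran against the passage (there was none), the 5 largest further rises and falls in the direct passage, the 5 largest differences between cycles, and up to 4 genes per list with the largest difference. A list and some single genes are not reported here. Further list members, and the genes in the closing observations, were named after their values were seen. Of the listed genes, 6 symbols were not matched to a row and 22 genes lacked a usable value on at least 1 of the 8 arrays, among them CDC14, CDC6, CTS1 and CYK3. Alternatives were other normalizations, limit values kept, looser filters, array weights, another prior, cycle as a block, a time term, a minimum fold, and leaving arrays out.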

Additional observations from a re-analysis of the deposited data

Results flagged for a closer look

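In 10 named genes the difference between mitotic and G1 arrays itself differed between the cycles (limma contrast, second minus first, adjusted over all genes). It was -0.76 log10 for SCW11, -0.69 for DSE1, -0.46 for SUN4, -0.80 for BSC1 and -0.32 for IRC8. It was 0.86 for NCE103, 0.76 for ARG1, 0.67 for ARG3, 0.53 for ARG4 and 0.34 for ORT1. DSE1 and BSC1 were higher in mitosis in the first cycle and lower in the second.

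In 12 of 274 groups of 4 arrays examined over the named genes (4.38%), 1 array stood far from the other 3 by Dixon's criterion. Chance alone marks about 1 in 20 such groups. Of the 12, 6 were at 50 min, among them ASF1 at -0.41 against -0.17 to -0.14 on the other mitotic arrays, FRK1 at 0.41 against 0.18 to 0.21, ASE1 at 0.28 against 0.15 to 0.17, SUL1 at 0.017 against -0.15 to -0.13. The others at 50 min were SDH4 at -0.065 against 0.08 to 0.11 and PRY3 at -0.35 against -0.16 to -0.15. At 60 min, PYK2 was at 0.086 against -0.0023 to 0.01 and RAD54 at -0.19 against -0.06 to -0.04. At 10 min, FIG2 was at 0.67 against 0.04 to 0.09 and MET28 at 0.42 against 0.08 to 0.11 on the other G1 arrays. CDC9 was at 0.32 at 20 min against 0.13 to 0.17, and ATP2 at 0.051 at 70 min against 0.13 to 0.14.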

How the results depend on the processing

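Of 4771 combinations of a named gene and an alternative, 4332 kept their side of the threshold, 329 lost a call and 106 gained one. Another 4 reversed, DSE1 (0.27), BSC1 (0.31) and AMN1 (0.35) in the first cycle alone and ARG3 (0.29) in the second cycle alone. Both of these were added after seeing the data. Genes higher in mitosis and in G1 numbered 112 and 190, with 46 and 95 under a linear time term, 50 and 115 without the 10 and 20 min arrays, 495 and 517 in the first cycle alone and 22 and 54 in the second cycle alone. A minimum of 1.5-fold left 61 of the former. Leaving out 1 array gave 39 to 299 and 98 to 320. In the direct passage, 118 rose and 68 fell. The falls were 110 with quantile normalization and 36 in a fit of the 4 passage arrays alone, and leaving out 1 array gave 51 to 138 rises and 16 to 80 falls. The 34 genes that differed between cycles became 10 with quantile normalization, 69 with array weights, 57 with a trended and robust prior, and 5 to 81 without 1 array. The causes were not tested. With cycle as a block the counts were 132 and 205, and of the named genes that block gained BUD9, SWI4, SCW4, EXG1 and SSA3 and lost MYO1. The labels carry no replicate numbers, so no other pairing was made. Signal over background is unknown.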

Other observations

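Families seen among the called genes and chosen after their values were seen are given as values only. All 7 YRF1 genes, helicases encoded in the Y' elements next to telomeres, were higher in the G1 arrays, by 2.17-fold to 2.44-fold, and all 7 rose in the direct passage. Their median was 0.49 and 0.55 at 10 and 20 min, 0.05 and 0.03 at 50 and 60 min, 0.42 and 0.36 at 70 and 80 min, and 0.14 and 0.13 at 110 and 120 min. These copies are nearly identical, so the array may measure them as 1 family. Of 17 hexose transporter (HXT) genes, 6 were higher in G1 and none in mitosis, with folds up to 3.58 for HXT2, and of 11 measured COS genes, another subtelomeric family, 5 were higher in G1 and none in mitosis. Over all genes tested, 3.26% were higher in G1 and 2.02% rose in the direct passage.

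Of 11 genes named ARG or ORT1, none differed between mitotic and G1 arrays and 4 differed between the cycles. The shares over all genes tested were 5.18% and 0.583%. The median of the 11 was 0.36 and 0.37 at 10 and 20 min and between 0.08 and 0.14 on the other 6 arrays.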
